A study of Homo sapiens with 32 samples.

Results

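HSP90 is a dimeric ATP-dependent chaperone that acts late in protein folding and holds kinases, steroid receptors and other clients in forms that can be activated. Human cells carry 4 HSP90 paralogs. HSP90AA1 is the stress-inducible cytosolic form, HSP90AB1 the constitutive cytosolic form, HSP90B1 (also called GRP94) the form of the endoplasmic reticulum and TRAP1 the mitochondrial form. The cytosolic pair works with cochaperones that deliver clients or set the pace of the ATPase cycle. Members were chosen by name as these 4 paralogs and 6 cochaperones: AHSA1, which stimulates the ATPase, STIP1, which bridges HSP70 and HSP90, CDC37, which brings kinases, PTGES3, which stabilises the closed ATP-bound dimer, and the immunophilins FKBP4 and FKBP5 of steroid receptor complexes. All 10 were found among the 60107 gene rows, and all 10 passed the filter on low counts in each comparison.

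RNA of 2 human cell lines, HEK293T (embryonic kidney) and U2OS (osteosarcoma), was sequenced from the 3′ ends of transcripts with the QuantSeq method in 32 libraries, numbered as in their titles. Camptothecin (CPT) traps topoisomerase I on DNA. U2OS cells received 400 nM CPT (libraries 26 to 29) or the solvent DMSO (30 to 33) for 24 h, followed by 48 h of recovery. Libraries 18 to 21 carry the label HEK293T ATM KO, whereas the methods describe 9 μM of an inhibitor of the kinase ATM for sequencing of HEK293T cells, and they are called the ATM inhibitor libraries here. Their controls were the DMSO libraries 22 to 25, with the same times. Libraries 2, 4, 6 and 8 are labelled HEK293T treated with CPT (100 nM), and 3, 5 and 7 HEK293T with DMSO, as is 17. Libraries 10, 12, 14 and 16 are labelled U2OS with ATM knocked out, and 1, 11, 13 and 15 wild-type U2OS, all grown for 72 h. Knockout cells were CRISPR/Cas9-edited clones, so that clone and knockout cannot be told apart.

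Expression went against the labelled cell line in libraries 2 to 8 and 10 to 16, and fitted it in libraries 1 and 17. The summed level of 10 U2OS markers was 1683 to 1920 CPM in U2OS DMSO libraries and 128 to 187 CPM in HEK293T DMSO libraries 22 to 25. It was 1947 to 2593 CPM in libraries 1 to 8 and 88.5 to 181 CPM in libraries 10 to 17. A list of 10 HEK293T markers separated the lines less well, since 4 of its genes were higher in U2OS DMSO and 6 lower. Libraries 1 to 17 are therefore compared by number, even against odd, within 1 to 8 and within 10 to 17. Each even number carries a treated or knockout label and each odd number a control label. Which treatment each set received is not assigned. This pairing puts library 1 with 3, 5 and 7 and library 17 with 11, 13 and 15, against their own labels. Values of members under other groupings are given for libraries 10 to 17 and, in part, for the other comparisons. The libraries held 1232674 to 6362433 counts on genes, and every member had a level over 11 CPM in every library, well above the 2.43 CPM that 3 counts make at the lowest depth. ATM mRNA was 36.8 to 64.6 CPM in libraries 2 to 8 even and 61.3 to 74.8 CPM in 1 to 7 odd (log2 fold change -0.31, SE 0.17, adjusted p = 0.25). It was 26.1 to 36.9 CPM in libraries 10 to 16 even and 20.9 to 33.1 CPM in 11 to 17 odd, and 50.8 to 68.7 CPM in ATM inhibitor libraries against 50.9 to 73.1 CPM in their controls. These 3′ counts do not test for a lesion elsewhere in the gene. The 4 libraries of a set are taken as its replicates, and p-values cover the spread between them. In such bulk samples, fewer cells with a transcript and less of it per cell cannot be told apart.

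The promoter sequences of the 3 abundant paralogs are shown because they carry the stress-response elements that set the cytosolic forms apart from the reticulum form. Heat shock factor 1 (HSF1) binds alternating 5-base units as a trimer, and the unfolded protein response of the endoplasmic reticulum acts through the ER stress element. RefSeq windows (GRCh38.p14, 250 bases before to 50 after an annotated start site) were found for 9 of the 10 members. They were searched on both strands for a heat shock element of 3 units, TTC, GAA and TTC with 2 bases of any kind between units, and for the ER stress element, CCAAT and CCACG with 9 bases of any kind between them. The heat shock element was in 0.49% of all 35116 windows and in a window of HSP90AA1 and of HSP90AB1. The ER stress element was in 0.0769% of windows and, among members, only in that of HSP90B1. No match in the other members says only that these letters were not in those windows. The stretches below run 5′ to 3′ on the gene's strand, with the matches in capitals.
HSP90AA1, chr14:102087108-102087144, minus strand, 1 of 2 windows: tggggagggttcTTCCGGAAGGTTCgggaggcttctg
HSP90AB1, chr6:44247766-44247855, plus strand, 1 of 3 windows: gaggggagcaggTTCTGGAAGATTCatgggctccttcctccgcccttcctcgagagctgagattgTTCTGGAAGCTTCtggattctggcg
HSP90B1, chr12:103930204-103930351, plus strand: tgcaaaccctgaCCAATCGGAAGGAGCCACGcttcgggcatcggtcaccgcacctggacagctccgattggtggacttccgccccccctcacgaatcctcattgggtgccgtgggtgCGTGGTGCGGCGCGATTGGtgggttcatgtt
The HSP90AA1 match lies 88 to 76 bases before its start site, the HSP90AB1 matches 165 to 153 and 112 to 100 bases before, and the HSP90B1 matches 194 to 176 and, on the opposite strand, 89 to 71 bases before. In GENCODE 29 (GRCh38) the genes lie at chr14:102080738-102139699 (HSP90AA1), chr6:44246166-44253888 (HSP90AB1), chr12:103930107-103953645 (HSP90B1) and chr16:3651639-3717597 (TRAP1), and all are protein coding.

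Levels are given as counts on genes scaled to a library of 1000000 (CPM), scaled by TMM factors over all 32 libraries. Because QuantSeq yields fragments from transcript ends, CPM does not grow with transcript length. Whether the 3′ ends of each paralog were counted equally fully was not tested, so shares between paralogs are shares of counts. The 3 abundant paralogs held nearly all of the family's counts. In HEK293T DMSO libraries, HSP90AA1 took 46.8% ± 0.87 (SD, n = 4) of the summed paralog CPM, HSP90AB1 32.7% ± 0.68, HSP90B1 18.5% ± 0.93 and TRAP1 2.01% ± 0.10. In U2OS DMSO libraries the shares were 36.2% ± 2.7 for HSP90AA1, 41.0% ± 1.3 for HSP90AB1, 22.3% ± 1.7 for HSP90B1 and 0.503% ± 0.063 for TRAP1. By counts, HSP90AA1 was thus the leading paralog in HEK293T and HSP90AB1 in U2OS. Among the cochaperones PTGES3 was the most abundant in either line, at 442 ± 21 CPM in HEK293T DMSO and 336 ± 11 CPM in U2OS DMSO. Counts on processed pseudogene copies could stem from the same transcripts. The copies of HSP90AB1 held at most 0.967% of the counts of HSP90AB1 and its copies in any library, and those of HSP90AA1 at most 0.174%.

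**Figure D1:**
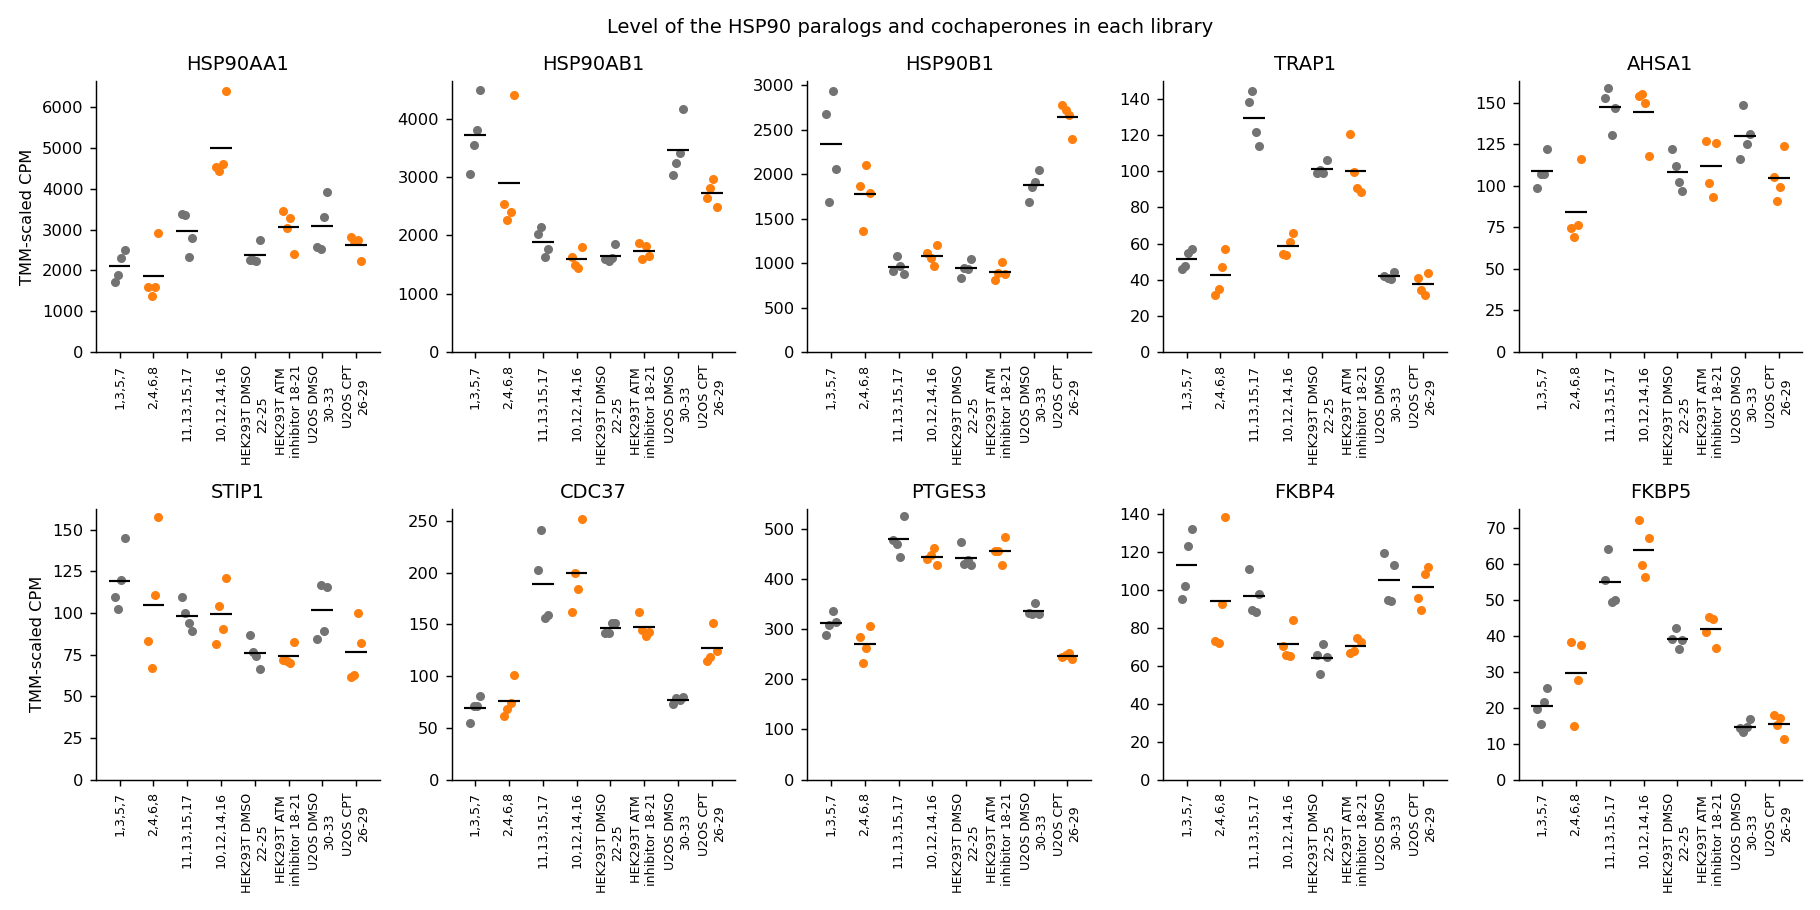
Level of each member in every library, in TMM-scaled CPM on linear axes from 0, by library set (4 libraries each). Grey points are control-labelled and orange points treated or knockout-labelled libraries, and bars are means. HSP90B1 in U2OS CPT libraries (2393 to 2776 CPM) lies above every U2OS DMSO library, and TRAP1 in libraries 10 to 16 even (53.7 to 66.0 CPM) lies below every library of 11 to 17 odd.

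The control libraries of the 2 lines differed in every member. HSP90AB1 and HSP90B1 were about 2.095-fold and 1.996-fold higher in U2OS than in HEK293T, while TRAP1, CDC37, PTGES3 and FKBP5 were lower. With edgeR's quasi-likelihood test and Benjamini-Hochberg adjustment over all genes, a call here is an adjusted p under 0.05. In U2OS DMSO against HEK293T DMSO, 6 members were called higher and 4 lower, where 32% and 30.1% of the 19739 genes tested were called higher and lower. An absolute log2 fold change over 1 as well, the study's added cutoff, was passed by HSP90AB1, TRAP1 and FKBP5, against 39.9% of genes. Among the 5410 genes tested with a mean of at least 32 CPM, 76% were called. The sets did not overlap for 7 of the 10 members, beside 54.7% of all genes tested.

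HSP90AB1 read 3032, 3243, 3417 and 4170 CPM in U2OS DMSO and 1595, 1561, 1615 and 1846 CPM in HEK293T DMSO libraries, a log2 fold change of 1.07 (SE 0.11, adjusted p = 1.7e-10). The sets did not overlap. HSP90B1 followed at 1.00 (SE 0.10) and FKBP4 at 0.71 (SE 0.12). HSP90AA1 was 0.38 higher on the log2 scale (SE 0.12, adjusted p = 0.0067), STIP1 0.42 (SE 0.12) and AHSA1 0.26 (SE 0.11, adjusted p = 0.042), all with overlapping sets. Scaling by plain library totals lowered the median log2 fold change of all genes to -0.21 and ended these calls for HSP90AA1, STIP1 and AHSA1. Control-labelled libraries 1 to 7 odd resembled U2OS, and 11 to 17 odd resembled HEK293T. HSP90AA1 averaged 2101 CPM in the former and 2969 CPM in the latter, and AHSA1 109 and 147 CPM. Both were thus lower in the U2OS-like set, whereas STIP1 was higher in it (119 and 98.3 CPM). These odd sets were not tested against each other.

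TRAP1, the mitochondrial paralog, went the other way. Its level was 40.6 to 44.4 CPM in U2OS DMSO and 98.8 to 106 CPM in HEK293T DMSO (log2 fold change -1.27, SE 0.11, adjusted p = 8.59e-12). Of 11 mitochondrial partners of TRAP1, 9 were lower, among them the proteases CLPP (-1.69) and LONP1 (-1.60) and the HSP70 cochaperones DNAJA3 (-1.29) and GRPEL1 (-1.27). Their median was -1.03 against 0.014 for all genes. In contrast, 12 of 16 endoplasmic reticulum partners of HSP90B1 were higher and 1 was lower (median 1.102), led by DNAJB11 (2.04), the disulfide isomerase PDIA3 (1.73), CRELD2 (1.73) and the HSP90B1 cochaperone CNPY3 (1.57). Of 16 heat shock genes of HSF1, 12 were higher and 3 lower (median 0.98). Not all of them are cytosolic. HSPD1 (-0.26) and HSPE1 (0.82) are also counted among the mitochondrial partners of TRAP1, and SERPINH1 belongs to the endoplasmic reticulum. HSPA1A, the inducible HSP70, was at 189 CPM in U2OS and 5.30 CPM in HEK293T DMSO (5.15), CRYAB was 4.37 and HSPB1 3.14 higher, and HSPA4L was at 0 in every U2OS DMSO library against 72.3 CPM. HSPA1B, a near-identical copy of HSPA1A, was 0.91 lower on the log2 scale, and how reads were split between the copies is not known. HSF1 itself was 0.80 higher and HSF2 0.87 lower on the log2 scale. FKBP5, a gene induced by glucocorticoid receptor, was at 14.8 ± 1.5 CPM in U2OS and 39.2 ± 2.4 CPM in HEK293T DMSO (log2 fold change -1.40, SE 0.14). Of 31 other HSP90 cochaperones tested, 5 were higher and 15 lower (median -0.29), and of 24 clients tested 7 were higher and 10 lower. Other receptor targets went in both directions, 5 of 12 up and 4 down, with SGK1 at 4.58 and TSC22D3 at -5.54.

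In U2OS cells, HSP90B1 and the kinase cochaperone CDC37 were higher after CPT, and the constitutive cytosolic paralog HSP90AB1 with PTGES3, STIP1 and AHSA1 lower, all by less than 2-fold. Thus 2 members were called up and 4 down, in a comparison where 16.6% of 19080 genes were called up and 15.3% down. None passed the fold cutoff, which 13.5% of genes passed. Of 5270 genes with a mean of at least 32 CPM, 48.2% were called in either direction, beside 6 of the 10 members. The sets did not overlap for 4 of the 10 members, beside 30.1% of all genes tested.

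HSP90B1 was at 2776, 2724, 2668 and 2393 CPM in CPT libraries and at 1682, 1855, 1916 and 2042 CPM in DMSO libraries, 1.41-fold higher in the mean (log2 fold change 0.49, SE 0.11, adjusted p = 0.000613). The sets did not overlap. The gain was called in each fit with 1 library left out, where it ran from 0.43 to 0.53. In the control-labelled, U2OS-like libraries 1 to 7 odd HSP90B1 ran from 1685 to 2940 CPM, a range that holds the CPT values. CDC37 was at 115, 119, 152 and 125 CPM after CPT and at 73.2, 78.7, 77.4 and 80.1 CPM without it, again without overlap (0.71, SE 0.12, adjusted p = 1.59e-05). PTGES3 was at 245, 248, 253 and 241 CPM in CPT libraries and at 333, 329, 352 and 330 CPM in DMSO libraries, a drop of 0.45 on the log2 scale (SE 0.10, adjusted p = 0.000884) that held in every fit with 1 library left out.

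HSP90AB1 was at 2637, 2807, 2961 and 2483 CPM after CPT and 3032, 3243, 3417 and 4170 CPM without it, so that the sets did not overlap (log2 fold change -0.36, SE 0.12, adjusted p = 0.017). Without library 29 or library 33 it was no longer called (adjusted p = 0.060 and 0.069). STIP1 (-0.42, SE 0.14, adjusted p = 0.025) was lost without library 26, 27, 31 or 33, and AHSA1 (-0.32, SE 0.12, adjusted p = 0.040) without 26, 27, 28, 31 or 32. HSP90AA1, the inducible form, was at 2624 ± 272 CPM after CPT and 3080 ± 665 CPM without it (-0.24, SE 0.13, adjusted p = 0.16). It passed the threshold, as lower, without library 30 (adjusted p = 0.044) or 31 (0.048). TRAP1 (-0.16, SE 0.13), FKBP4 (-0.06, SE 0.12) and FKBP5 (0.05, SE 0.18) were not called. Under plain library totals the median of all genes shifted to -0.16, 34.9% of called genes were up instead of 52.1%, and HSP90AA1 was called lower (-0.40, adjusted p = 0.00456), while the 6 calls above kept their direction. Markers of the lines also moved with CPT. Of 10 U2OS markers 5 rose and none fell, with CD44 at 2.72 and CAV1 at 2.05, and of 10 HEK293T markers 1 rose and 2 fell. For U2OS markers the summed list was at 2825 to 2976 CPM against 1683 to 1920 CPM. The part of these markers in the results was not tested.

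Of the 16 endoplasmic reticulum partners of HSP90B1, 10 rose with CPT and 1 fell, with a median log2 fold change of 0.34 against 0.0079 for all genes. The list was led by the HSP70 cochaperone DNAJB9 (0.81), CRELD2 (0.69), the disulfide isomerase PDIA4 (0.59) and CNPY4, which fell (-0.49), and the lectin chaperones CANX (0.44) and CALR (0.40) also rose. The 5 not called were HSPA5 (0.20, adjusted p = 0.20), HYOU1 (0.07), SDF2L1 (0.24), CNPY3 (-0.11) and OS9 (0.11). Whether the unfolded protein response was active was not tested. Of 15 heat shock genes of HSF1 tested, 5 rose and 3 fell. HSPA1A (-0.90) and HSPA1B (-0.86), the same near-identical pair, both fell, and CRYAB (1.19) and DNAJB4 (0.70) rose. Of 31 other HSP90 cochaperones tested, 3 rose and 8 fell (median -0.10), and the 4 largest changes were falls, of NUDCD2 (-0.91), the phosphatase PPP5C (-0.80), PIH1D1 (-0.73) and NASP (-0.68). Of 11 mitochondrial partners of TRAP1, PPIF (0.67) and GRPEL1 (0.58) rose and none fell. Of 3 heat shock factors, HSF2 fell (-0.39). Among 23 HSP90 clients tested, 4 rose and 6 fell, with the receptor kinase MET at 1.94, the mitotic kinase PLK1 at -1.47 and the mineralocorticoid receptor NR3C2 at -1.52. Of 10 glucocorticoid-responsive genes tested, 2 rose and 5 fell, with DUSP1 at 2.10 and SGK1 at -1.62.

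With the ATM inhibitor in HEK293T, no member was called, in a comparison where 0% of 18413 genes were called up, 0.00543% (1 gene) down and 0% past the fold cutoff. DESeq2 likewise called 1 gene over the table, and edgeR's likelihood ratio test 5, none of them a member. At an unadjusted p under 0.05, 1019 of the 18413 genes passed, among them 1 member, HSP90AA1. HSP90AA1 was at 3464, 3046, 3295 and 2405 CPM in inhibitor libraries and 2251, 2260, 2229 and 2740 CPM in DMSO libraries. Its log2 fold change was 0.37 (SE 0.12), with an unadjusted p = 0.00391 of edgeR's quasi-likelihood test and an adjusted p = 0.79, and 3 of 4 inhibitor libraries lay above all 4 controls. Without library 21, HSP90AA1 was called at 0.47 (adjusted p = 0.023), together with 97 genes in all in place of 1. The other paralogs lay near 0, with HSP90AB1 (0.07, 95% confidence interval -0.14 to 0.29), HSP90B1 (-0.06, -0.28 to 0.16) and TRAP1 (-0.01, -0.23 to 0.21). The cochaperones ran from -0.04 for STIP1 to 0.13 for FKBP4, with SEs of 0.10 to 0.12. In each of the partner lists no gene was called.

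In libraries 10 to 17, whose expression resembled HEK293T, HSP90AA1 was 1.68-fold higher and TRAP1 0.452-fold the level in even than in odd libraries. HSP90AA1 was at 4533, 4437, 4620 and 6392 CPM in even libraries and at 3391, 3361, 2333 and 2789 CPM in odd libraries. The sets did not overlap, and the log2 fold change was 0.77 (SE 0.13, adjusted p = 0.000105). Library 16 stood above the other even libraries, and without it HSP90AA1 was still called. TRAP1 was at 54.0, 53.7, 60.9 and 66.0 CPM in even and 139, 144, 122 and 114 CPM in odd libraries (-1.12, SE 0.12, adjusted p = 1.79e-07). FKBP4 was also lower, at 71.5 ± 9.0 against 96.8 ± 10.6 CPM (-0.41, SE 0.12, adjusted p = 0.011), a call that was lost without library 11 (adjusted p = 0.061). One member called up and 2 down compare with 17.6% and 17.3% of 19464 genes, and TRAP1, past the fold cutoff, with 14% of them. The sets did not overlap for 3 of the 10 members, beside 31.4% of all genes tested. HSP90AB1 (-0.23, SE 0.11, adjusted p = 0.12), HSP90B1 (0.19), AHSA1 (-0.01), STIP1 (0.04), CDC37 (0.10), PTGES3 (-0.09) and FKBP5 (0.24) were not called. FKBP5 passed the threshold without library 13 (0.32, adjusted p = 0.049).

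The ratio of the cytosolic paralogs differed as well. HSP90AA1 was 2.78 to 3.54 times HSP90AB1 in even libraries 10 to 16 and 1.43 to 1.67 times in odd libraries 11 to 17, a quantity that scaling does not touch. TRAP1 made up 0.764% ± 0.069 of the paralog CPM in even and 2.19% ± 0.16 in odd libraries. With the labels as deposited, which put library 1 among the controls in place of 17, no member was called (HSP90AA1 0.92, adjusted p = 0.090, TRAP1 -0.92, adjusted p = 0.13). In that grouping 476 of 19530 genes were called up and 302 down. It sets library 1, which resembled U2OS, among libraries that resembled HEK293T. With library 17 left out, so that odd libraries 11, 13 and 15 all carry the U2OS wild-type label, the calls were the same 3. The share of reads on no annotated gene was 15.8 to 18.5% in the even libraries and 9.39 to 11% in the odd ones. Of 8 U2OS markers tested, 4 were higher and none lower, with the summed list at 171 to 181 CPM against 88.5 to 121 CPM. ANXA1 was 2.82 and LGALS1 1.94 higher, while CD44 was at 0.640 and 0.102 CPM. Their part in the results was not tested.

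Of 16 heat shock genes of HSF1, 9 were higher in even libraries 10 to 16 and none lower, with a median of 0.82 against 0.041 for all genes. The HSP40 family members DNAJB4 (1.76) and DNAJA1 (1.16), the inducible HSP70 HSPA1A (1.45, from 1.35 to 3.45 CPM) and the cochaperone BAG3 (1.04) led them. HSPA1B, the near-identical copy of HSPA1A, was also called higher (1.04), at 138 CPM in even and 67.6 CPM in odd libraries. HSF1 itself was 0.53 lower (adjusted p = 0.0021). Of 11 mitochondrial partners of TRAP1, 5 were lower and none higher (median -0.34), with LONP1 (-1.52), CLPP (-0.69), DNAJA3 (-0.66) and the mitochondrial HSP70 HSPA9 (-0.41). Of 31 other cochaperones tested, 4 were higher and 9 lower, among them the ubiquitin ligase STUB1 (-0.99), TELO2 (-0.97) and PIH1D1 (-0.74). Reticulum partners of HSP90B1 gave 1 up, CALR (0.70), and 4 down, led by CNPY3 (-0.89), CNPY4 (-0.75) and CANX (-0.38). Of 12 glucocorticoid-responsive genes, 6 were higher and 3 lower, with SGK1 at 3.30 and TSC22D3 at -1.79. Of 26 clients, 6 were higher and 5 lower. The largest fold among them fell on ESR1, PGR and TERT, each under 2 CPM in both sets, and on AHR (1.02).

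In libraries 2 to 8 against 1 to 7, which resembled U2OS, no member was called, where 6.43% of 18591 genes were called up, 6.56% down and 5.24% past the fold cutoff. DESeq2 and the likelihood ratio test also called 0 members. At an unadjusted p under 0.05, 4724 of the 18591 genes passed and 4 of the 10 members. These were HSP90AB1 (-0.38, SE 0.18), HSP90B1 (-0.40, SE 0.18), AHSA1 (-0.37, SE 0.15) and FKBP5 (0.48, SE 0.20). Library 8 stood apart. HSP90AA1 was at 1584, 1376, 1602 and 2928 CPM in libraries 2, 4, 6 and 8, and at 1720, 1897, 2298 and 2489 CPM in libraries 1, 3, 5 and 7. HSP90AB1 was at 2534, 2272, 2407 and 4404 CPM against 3047, 3553, 3814 and 4497 CPM. Library 8 was the highest even library for both, and the other 3 lay below all odd ones. Without library 8, 1479 of 17930 genes were called lower and 5 members with them, namely HSP90AA1 (-0.45, adjusted p = 0.036), HSP90AB1 (-0.62, 0.0046), AHSA1 (-0.57, 0.0036), STIP1 (-0.44, 0.036) and FKBP4 (-0.50, 0.011). Without library 4, FKBP5 was called higher (0.64, adjusted p = 0.027). With all libraries in one fit HSP90B1 was called lower (-0.40, adjusted p = 0.037). With libraries paired by neighbouring numbers as a replicate block, a pairing tried after the values were seen and stated by no label, 1858 genes were called higher and 1845 lower. HSP90AB1 (-0.41, adjusted p = 0.0021), HSP90B1 (-0.38, 0.0035) and AHSA1 (-0.39, 0.010) were then called lower and FKBP5 higher (0.44, 0.036). Of 31 other cochaperones, NUDCD2 (-0.85) and NASP (-0.65) fell and TSC1 (0.64) rose. Of 16 reticulum partners of HSP90B1, 4 fell and none rose, namely CANX (-0.76), CRELD2 (-0.71), DNAJB11 (-0.66) and MANF (-0.50). Among 15 HSF1 genes tested, CRYAB rose (1.30) and DNAJA1 (-0.62) and HSPA1A (-0.57) fell, and of the mitochondrial partners SDHA fell (-0.71). SGK1 fell by 2.23 on the log2 scale, 1 of 2 falls and 1 rise among 10 glucocorticoid-responsive genes. Of the clients MET (2.25) and ERBB2 (0.60) rose and CHEK1 (-1.50) fell.

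**Figure D2:**
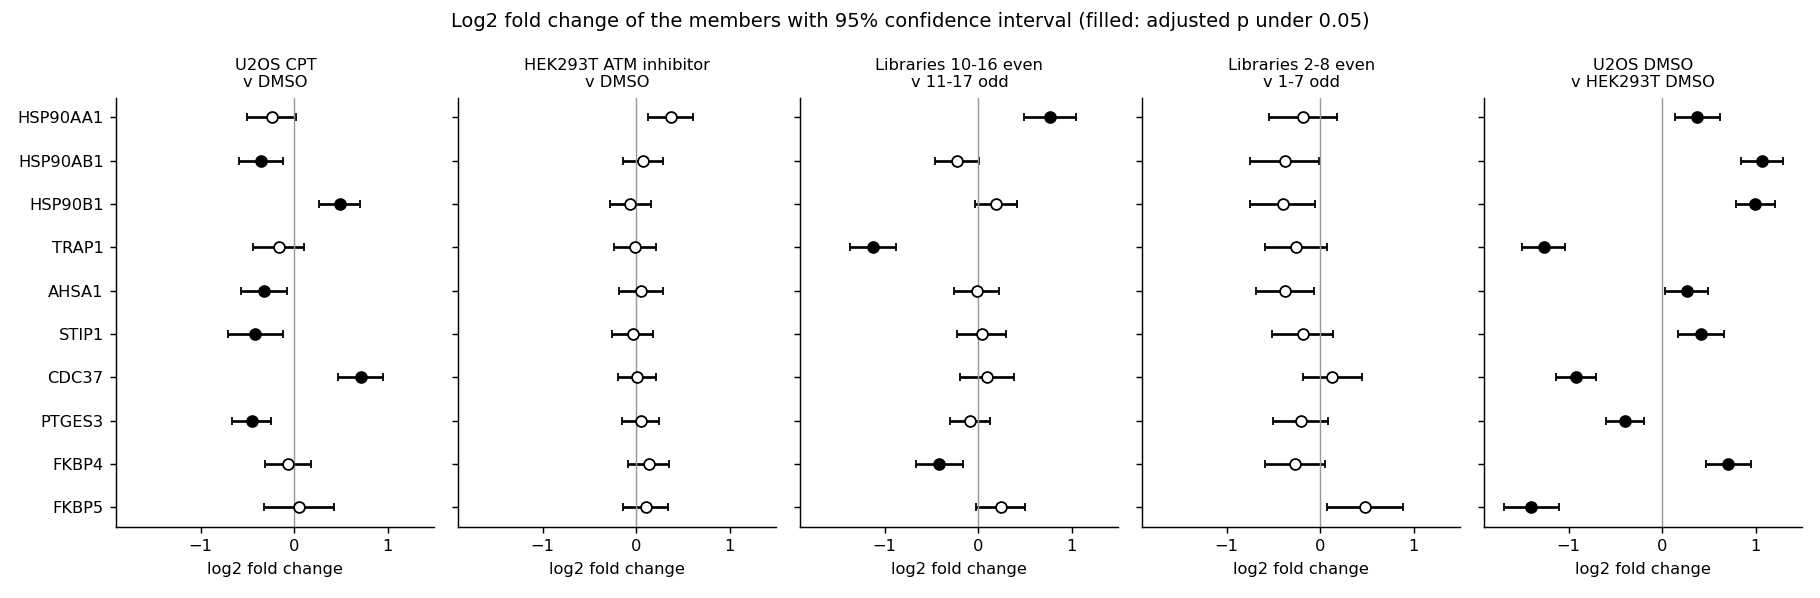
Log2 fold change of each member (y axis) in the 5 comparisons, with 95% confidence intervals of edgeR's quasi-likelihood fit. Filled points have an adjusted p under 0.05, such as HSP90B1 at 0.49 and CDC37 at 0.71 after CPT in U2OS, and TRAP1 at -1.12 in libraries 10 to 16 even against 11 to 17 odd.

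The difference between responses was tested itself, as a contrast of contrasts in one fit of all 32 libraries over 23638 genes. Of 30 such tests on members, 7 were called. Against the ATM inhibitor, cell line and treatment change together, and their parts cannot be told apart. Libraries 10 to 17 resembled HEK293T, so that contrast also changes the cell line. Against the ATM inhibitor, where 11.7% of genes were called, the CPT response in U2OS was higher for HSP90B1 (by 0.55, SE 0.19, adjusted p = 0.039) and CDC37 (0.70, SE 0.20, adjusted p = 0.0096) and lower for PTGES3 (-0.50, SE 0.15, adjusted p = 0.020). Against libraries 10 to 17, where 19.1% were called, it was lower for HSP90AA1 (-1.01, SE 0.23, adjusted p = 0.000568) and higher for TRAP1 (0.96, SE 0.19, adjusted p = 9.79e-05) and CDC37 (0.62, SE 0.19, adjusted p = 0.016). Against libraries 1 to 8, where 15.7% were called, only HSP90B1 was called among the members (0.88, SE 0.19, adjusted p = 0.000326), being higher after CPT (0.48) and lower in even libraries 2 to 8 (-0.40). For HSP90AB1 that difference was 0.0031 (95% confidence interval -0.40 to 0.40).

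Beyond the set means, the 2 cytosolic paralogs moved together from library to library. For this, log2 CPM was scaled by plain library totals, without TMM factors. Its deviations from the mean of each set, over the 32 libraries, gave a Pearson r of 0.91 between HSP90AA1 and HSP90AB1. HSP90B1 gave 0.21 with HSP90AA1 and 0.14 with HSP90AB1. These values describe genes that share a preparation and a depth in each library, and are no test. Shifts in library composition that TMM factors would scale were left in. Of 5435 genes with a mean of at least 32 CPM, the 3 nearest to HSP90AA1 were EIF5B (0.94), MFAP1 (0.93) and PSMA4 (0.93), those nearest to HSP90AB1 were NCL (0.94), DDX1 (0.92) and PSMD1 (0.91), and those nearest to HSP90B1 were DSC2 (0.87), CCDC47 (0.83) and CANX (0.79). The last is a lectin chaperone of the endoplasmic reticulum.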

How the data were processed

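RNA of 32 libraries was sequenced with QuantSeq. The authors deposited raw counts per gene without normalization, which the submitters' processing notes credit to Lexogen's FWD UMI pipeline for QuantSeq (2.3.1) on the BlueBee platform (1.10.18). The genome build, annotation and strand setting are not given in the sources used here. The 5 summary counts (reads on no gene were 9.39 to 39.9% of a library) and 92 spike-in rows were left out. Symbols were matched for 56104 identifiers.

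Tests used edgeR 4.0.16 in R 4.3.3 (TMM, quasi-likelihood, keeping genes for which 2 or more libraries of the fit held over 1 count), with Benjamini-Hochberg adjustment over all genes tested, after a check on simulated data. Alternatives were the likelihood ratio test of the study's methods, DESeq2 1.42.0, RLE factors, filterByExpr, no filter, one fit of all libraries, other groupings and each library left out. Plain library totals and a replicate block, pairing libraries by the order of their title numbers within sets, were added after the data were seen. Over genes with a mean of at least 32 CPM, deviations from the set means correlated in all 4 such pairs of libraries 1 to 8 (r = 0.16 to 0.64), with 2 of the 4 even libraries closest to their own neighbour. In each of the other 3 comparisons at least 1 pair was below 0. Named genes were all members, up to 4 called genes with the largest change per list and comparison, ATM and the 3 genes most like each abundant paralog. Some genes that this rule takes are not reported here. CALR and CANX after CPT were named after their values were seen. The members and lists were chosen with earlier results of these data known. Depths and floors cover counting error only.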

Additional observations from a re-analysis of the deposited data

Results flagged for a closer look

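A library that stood far from the other 3 of its set was found in 8 of 80 combinations of member and set, by Dixon's ratio of the gap to the range at its 95% critical value, which chance passes in about 1 of 20. HSP90AA1 gave 0.854 for library 8, 0.906 for library 16 and 0.941 for library 25. HSP90AB1 gave 0.877 and AHSA1 0.844 for library 8, so that library 8 was high in 3 members. AHSA1 gave 0.849 for library 16, STIP1 0.855 for library 21 and PTGES3 0.842 for library 32.

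Of the 30 differences between responses, 7 were called by edgeR's quasi-likelihood test. On the log2 scale, the CPT response in U2OS minus that to the ATM inhibitor was 0.55 for HSP90B1, 0.70 for CDC37 and -0.50 for PTGES3. The CPT response minus the even-against-odd difference of libraries 10 to 17 was -1.01 for HSP90AA1, 0.96 for TRAP1 and 0.62 for CDC37, and minus that of libraries 1 to 8 it was 0.88 for HSP90B1. The 2 last comparisons rest on libraries whose labels go against their expression. In the comparison with the ATM inhibitor, cell line and treatment change together and cannot be told apart.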

How the results depend on the processing

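Direction and side of the threshold were kept by HSP90B1, CDC37 and PTGES3 after CPT in U2OS, and by HSP90AB1, HSP90B1, TRAP1, CDC37, PTGES3, FKBP4 and FKBP5 between the lines, under every alternative run. Where a call was lost, the cause was not tested. With all libraries in one fit, 2 members were called lower after CPT instead of 4, and 1 was called lower in libraries 2 to 8. With plain library totals 3 members instead of 6 were higher in U2OS than in HEK293T. With the labels as deposited, 0 members were called up and 0 down in libraries 10 to 16. In that grouping 476 of 19530 genes were called up and 302 down, with U2OS-like library 1 among HEK293T-like libraries. Leaving out each library in turn, members called lower after CPT ran from 2 to 5, members called higher with the ATM inhibitor from 0 to 1, members called in libraries 10 to 16 from 1 to 2 up and from 1 to 2 down, and members called in libraries 2 to 8 from 0 to 1 up and from 0 to 5 down. The labels give no set the replicate numbers of another and state no pairing. Pairing by the order of title numbers within a set (replicate block), added after the data were seen, called 1 member up and 3 down in libraries 2 to 8 in place of 0 and 0, and changed no other call of a member. In libraries 10 to 16 the block lowered the genes called from 6785 to 5381, and in libraries 2 to 8 it raised them from 2415 to 3703.

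The values that changed sign belonged to members that were not called. With plain totals they were -0.11 for FKBP5 after CPT, -0.0065 for AHSA1, -0.051 for CDC37 and -0.011 for PTGES3 with the ATM inhibitor, and 0.012 for AHSA1 in libraries 10 to 16, where DESeq2 gave 0.029, RLE factors 0.030 and filterByExpr 0.054. One fit gave -0.0017 for CDC37 with the inhibitor. All 8 libraries labelled HEK293T DMSO as controls gave -0.55 for HSP90AB1, 0.24 for TRAP1, -0.031 for AHSA1 and -0.34 for FKBP4. Libraries 3, 5 and 7 among those controls resembled U2OS, so that this grouping mixes the lines. In libraries 10 to 16, STIP1 was -0.0076 without library 17, and the labels as deposited gave -0.34 for HSP90B1, 0.12 for AHSA1, -0.023 for STIP1 and 0.11 for PTGES3, and -0.30 for CDC37 in libraries 2 to 8. The deposited labels set library 1 or 17 among controls that resembled the other line. Leaving out single libraries, FKBP5 after CPT ran from -0.023 to 0.18. With the inhibitor TRAP1 ran from -0.12 to 0.047, AHSA1 from -0.024 to 0.13, STIP1 from -0.098 to 0.035 and CDC37 from -0.049 to 0.037. In libraries 10 to 16 AHSA1 ran from -0.063 to 0.085, STIP1 from -0.068 to 0.12 and CDC37 from -0.031 to 0.23, and CDC37 in libraries 2 to 8 from -0.030 to 0.19.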
